A study of Mus musculus with 37 samples.

Results

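A convergent clonotype is a T cell receptor beta chain that 1 mouse had assembled in several ways at the DNA level: the same variable segment (TRBV), the same joining segment (TRBJ) and the same amino acid sequence of the third complementarity-determining region (CDR3), encoded by at least 3 different nucleotide sequences, here called forms. Convergent clonotypes were sought within each of 37 lymph node libraries, counting only nucleotide clonotypes with a clone count of at least 2 reads. The 37 libraries held 14034 convergent clonotypes among 1249182 amino acid clonotypes when each library was counted on its own, or 1.12%. Merged over libraries, these were 5984 distinct receptors of 763836, or 0.783%. Members were thus chosen by their number of forms, so the form numbers below are a description, and tests are given only for properties that the choice did not use.

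Each library held rearranged TRB genes amplified from the genomic DNA of the lymph node of 1 mouse, so that a read stands for a gene and not for a transcript. The tumor-bearing mice were female littermates carrying MMTV-PyMT, a transgene in which the mouse mammary tumor virus promoter drives polyoma middle T antigen in mammary epithelium. PLX3397 (pexidartinib) blocks CSF1R, a receptor that macrophages need to survive, and was mixed into chow at 40 mg/kg per day once mice were 80 days old. The agent PTX, at 10 mg/kg, was injected every 5 days once they were 85 days old. RMP1-14, an antibody against the inhibitory receptor PD-1 of T cells (aPD-1), followed at the age of 87 days with a dose of 1.0 mg and then 0.5 mg every 5 days, and the protocol names rat IgG2a as its isotype control. At the time labelled d105 there were 6 mice given all 3 agents with the suffix R, 4 given all 3 agents with the suffix NR, 6 given PLX3397 and PTX (PLX+PTX), 2 given PTX, and 5 FVBN mice of the group WTNT with no agent in the labels. The d95 groups, all MMTV-PyMT, held 5 R mice, 3 NR mice, 3 PLX+PTX mice and 3 PTX mice. The labels do not spell out R, NR or WTNT, and these names are used as written. The label gives lymph node as the cell type, and the files hold TRB sequences and no expression values, so no marker could be set against it and helper and cytotoxic T cells cannot be told apart.

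A TRB gene is made in the thymus by joining a TRBV segment to a diversity segment (TRBD1 or TRBD2) and a TRBJ segment. At each joint, exonucleases trim the segment ends and terminal deoxynucleotidyl transferase adds bases without a template, called N bases. The CDR3 spans these joints and is the stretch of the chain that mostly touches the peptide. Most amino acids have several codons, so different trimming and different added bases can encode the same CDR3, a process known as convergent recombination. Receptors that many recombination paths can reach are known to be common within an animal and to be found in many animals, where they are called public.

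The sequences of the 3 most recurrent convergent clonotypes show what the forms look like. All TRB segments named here lie on chromosome 6 in the RefSeq table for GRCm38.p6. The TRBV1 TRBJ2-7 receptor that ends in GTGGYEQYF was convergent in 34 of 37 libraries and had the most forms in any library, 19 in d105 PLX+PTX replicate 4. The first 6 of those 19 forms by reads are given, with capitals at the bases that differ among the 6. They held 69, 27, 24, 20, 16 and 13 reads.
TRBV1 form 1: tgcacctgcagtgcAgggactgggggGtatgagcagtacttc
TRBV1 form 2: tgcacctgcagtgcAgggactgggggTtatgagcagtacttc
TRBV1 form 3: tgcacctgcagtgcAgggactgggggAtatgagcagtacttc
TRBV1 form 4: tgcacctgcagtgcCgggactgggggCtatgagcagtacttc
TRBV1 form 5: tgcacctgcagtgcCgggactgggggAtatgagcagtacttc
TRBV1 form 6: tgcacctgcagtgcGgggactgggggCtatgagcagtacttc
The 6 forms differed at 2 bases in 2 codons, and all 6 were aligned to TRBD2. Form 1 was found in 30 libraries, form 2 in 23, form 3 in 11, form 4 in 28, form 5 in 13 and form 6 in 8, so the same nucleotide sequences recurred in other mice. The 37 libraries together held 41 forms of this receptor, of which 28 were found in at least 2 libraries and 10 in at least 10.

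TRBV19 TRBJ2-7 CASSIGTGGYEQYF, also convergent in 34 libraries, ends in the same 9 residues on another TRBV segment. Its 10 forms in d105 NR replicate 3 were led by these 6, with 136, 113, 45, 44, 43 and 41 reads.
TRBV19 form 1: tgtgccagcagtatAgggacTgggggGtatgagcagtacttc
TRBV19 form 2: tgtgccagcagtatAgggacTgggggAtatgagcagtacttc
TRBV19 form 3: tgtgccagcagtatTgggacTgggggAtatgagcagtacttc
TRBV19 form 4: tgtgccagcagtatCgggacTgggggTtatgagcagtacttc
TRBV19 form 5: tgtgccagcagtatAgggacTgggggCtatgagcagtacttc
TRBV19 form 6: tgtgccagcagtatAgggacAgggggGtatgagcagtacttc
Forms 1 to 5 were aligned to TRBD2 and form 6 to TRBD1, so a single receptor of this mouse had been built from both diversity segments. Form 1 was found in 23 libraries and form 5 in 18, and forms 2, 3, 4 and 6 in 5, 4, 4 and 4.

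TRBV5 TRBJ2-7 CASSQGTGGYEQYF, convergent in 31 libraries, carries the same ending on TRBV5. It had 10 forms in d105 R replicate 2, and the first 6 held 181, 130, 115, 98, 63 and 50 reads.
TRBV5 form 1: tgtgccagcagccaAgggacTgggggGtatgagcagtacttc
TRBV5 form 2: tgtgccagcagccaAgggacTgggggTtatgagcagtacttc
TRBV5 form 3: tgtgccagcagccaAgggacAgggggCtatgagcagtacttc
TRBV5 form 4: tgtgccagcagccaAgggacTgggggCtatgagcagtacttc
TRBV5 form 5: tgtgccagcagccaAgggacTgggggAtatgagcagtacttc
TRBV5 form 6: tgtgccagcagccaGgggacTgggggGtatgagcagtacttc
Form 3, the one of these 6 aligned to TRBD1, was the most widespread, in 31 libraries. Forms 1, 2, 4, 5 and 6 were found in 25, 19, 22, 16 and 4 libraries. The capitals of all 3 sets lie at the third base of codons, where most variable bases of all members lay as well. The rule favours such positions, since all forms of a member encode the same amino acids.

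The number of convergent clonotypes followed the number of clonotypes sequenced. Libraries held 1090573 to 2831566 reads at d105 and 90648 to 917752 reads at d95, so the ranges of the 2 days did not overlap, and day and sequencing yield cannot be told apart. At full depth there were 58 to 1080 convergent clonotypes per d105 library. There were 27 to 162 in 13 d95 libraries and 0 in d95 NR replicate 1, which had 90648 reads and 2080 amino acid clonotypes and allows up to 3 where none was counted, by counting error alone. Across libraries, log2 of convergent clonotypes followed log2 of nucleotide clonotypes with a slope of 2.09 at d105 (r = 0.994, n = 23) and 1.92 at d95 (r = 0.968, n = 13). These slopes are descriptions, since both axes come from the same libraries and depth. For that reason groups are compared below after thinning.

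**Figure D1:**
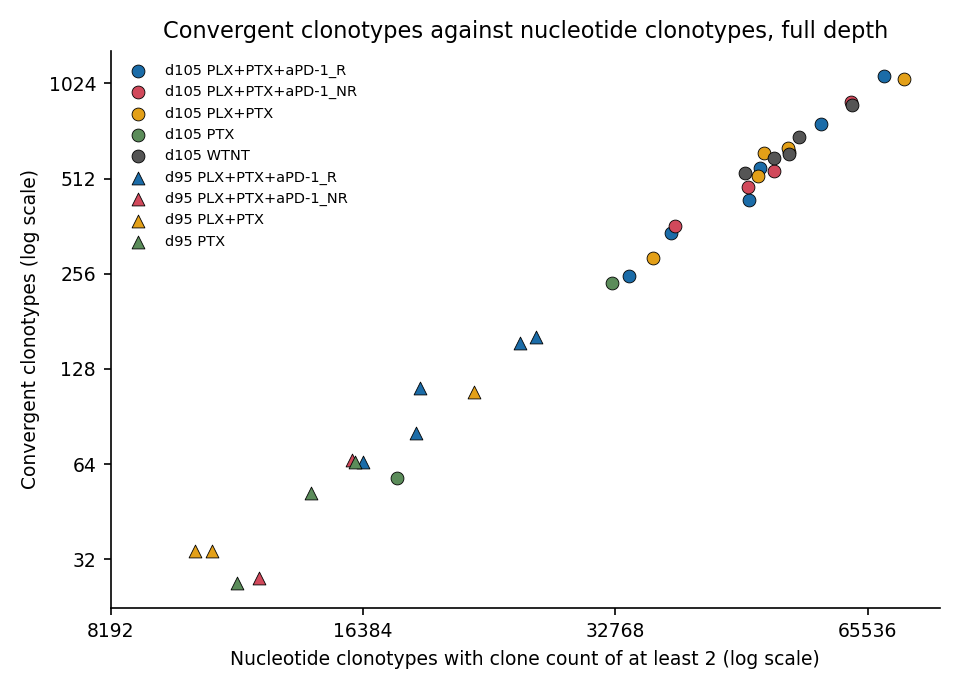
Convergent clonotypes (log scale) against nucleotide clonotypes with a clone count of at least 2 (log scale), 1 point per library at full depth, with circles for d105, triangles for d95 and colours for treatments. The points follow slopes of 2.09 at d105 and 1.92 at d95, and the library with 0 convergent clonotypes is not drawn.

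Most members just passed the rule. Of the 14034, 10167 (72.4%) had 3 forms, 2619 (18.7%) had 4, 775 (5.52%) had 5, 281 had 6 and 87 had 8 or more. Just outside it were 61906 amino acid clonotypes with 2 forms, against 1173242 with 1. At that boundary, clonotypes with 3 forms and with 2 forms had a mean CDR3 length of 13.6 and 13.7 amino acids, 7.33 and 7.96 bases between the aligned TRBV and TRBJ ends, and a median of 31 and 29 reads per form. Members held a median of 107 reads, and their largest form a median of 43.2% of them. With 3 forms the largest held 45.7%, where an even split would give 33.3%.

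Forms of a member were compared base by base, since a sequencing or PCR error in an abundant form could be read as a further form, and PCR reads without molecular identifiers are not independent molecules. The nearest other form of the same member lay 1 base away for 73.8% of the 48082 forms, and 2 or more bases away for 26.2%. A form 1 base from a form of the same member with at least 10 times its reads made up 2.99% of forms. Counting any clonotype with the same segments and length as the larger neighbour, the share was 3.34% in members and 1.58% among other nucleotide clonotypes. Without such neighbours 13031 member entries (92.9%) were left.

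By the rule, forms encode the same amino acids, so their differences could lie only where codons are degenerate. Of 36788 variable bases, 87.0% were at the third base of a codon, 10.4% at the first and 2.59% at the second. Members varied in a median of 2 codons: 8.22% varied in 1, 50.9% in 2, 33.2% in 3 and 7.64% in 4 or more. Judged by the alignment of each member's largest form, 30.6% of variable bases fell in the diversity segment, 20.1% in TRBV, 18.9% in TRBJ, 7.56% between TRBV and TRBD, 7.54% between TRBD and TRBJ, and 15.4% in a middle with no diversity segment aligned.

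Both diversity segments contributed to the same receptor more often for TRBJ2 than for TRBJ1. The TRB locus runs TRBD1, the TRBJ1 cluster, TRBD2 and then the TRBJ2 cluster, so TRBD1 can join either cluster while TRBD2 joins TRBJ2 directly. Of 12094 members with a TRBJ2 segment, 3431 (28.4%) had forms aligned to TRBD1 and forms aligned to TRBD2. Of 1940 members with a TRBJ1 segment, 127 (6.55%) did. The difference is a description, since a short diversity segment can be aligned to the wrong partner: among TRBJ1 forms, 3.80% in members and 5.32% in other clonotypes were aligned to TRBD2.

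Forms of members carried fewer bases that no segment explains. Among forms with an aligned diversity segment, 1.22 ± 0.15 bases matched no segment in members (SD over 36 libraries), against 3.002 ± 0.07 in other clonotypes (SD over 37 libraries). No such base was left in 39.3% ± 4.91 of member forms and 13.1% ± 1.09 of other forms. No diversity segment was aligned in 51.5% of TRBJ1 member forms against 32.3% of other TRBJ1 forms, and in 28.0% of TRBJ2 member forms against 21.0% of other TRBJ2 forms.

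A core of receptors was convergent again and again. Of the 5984 distinct members, 3685 (61.6%) were convergent in 1 library only and 2299 in at least 2. There were 718 in at least 5 libraries, 213 in at least 10, 38 in at least 19 and 4 in at least 30. The 38 accounted for 895 entries, or 6.38% of all.

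The 10 most recurrent members shared segments and endings. Of the 10, 8 used TRBJ2-7, and 4 ended in GTGGYEQYF on TRBV1, TRBV19, TRBV5 and TRBV3. After the 3 printed above came TRBV5 TRBJ2-7 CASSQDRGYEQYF in 30 libraries, TRBV3 TRBJ2-7 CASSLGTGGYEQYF in 29, TRBV1 TRBJ2-7 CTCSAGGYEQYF, TRBV3 TRBJ1-1 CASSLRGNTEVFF and TRBV1 TRBJ2-7 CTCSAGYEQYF in 28 each, TRBV3 TRBJ2-7 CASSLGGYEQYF in 27 and TRBV2 TRBJ2-5 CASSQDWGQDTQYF in 26. TRBV3 TRBJ1-1 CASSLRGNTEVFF had 40 forms over all libraries, nearly as many as the leading receptor, and its most widespread form was in 18 libraries. TRBV2 TRBJ2-5 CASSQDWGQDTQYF had 12 forms, 11 of them in at least 2 libraries, and its most widespread form was in 29.

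The leading receptor, TRBV1 TRBJ2-7 with the ending GTGGYEQYF, had many forms at a low level. At d105 it had a lowest, median and highest of 10, 12 and 14 forms in the 6 R libraries. It had 9, 9, 11 and 12 forms in the NR libraries, and a lowest, median and highest of 5, 13 and 19 in the 6 PLX+PTX libraries. The PTX libraries held 7 and 1, and the WTNT libraries 12, 12, 11, 7 and 10. The lowest value, 1 form, belonged to d105 PTX replicate 2, the d105 library with the fewest clonotypes, and the other groups of that day overlapped. At d95 there were 3, 7, 7, 7 and 6 forms in R libraries, 0, 3 and 6 in NR libraries, 9, 5 and 1 in PLX+PTX libraries and 5, 6 and 7 in PTX libraries. Its level was 115 ± 37.2 RPM (a receptor's reads scaled to a common total for every library) at d105 (SD, n = 23) and 75.3 ± 44.8 at d95 (SD, n = 14).

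The next pair stood at higher levels with fewer forms. TRBV19 TRBJ2-7 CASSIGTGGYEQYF had 5.96 ± 2.06 forms and 269 ± 111 RPM at d105, against 3.21 ± 1.19 forms and 637 ± 355 RPM at d95. TRBV5 TRBJ2-7 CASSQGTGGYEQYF had 5.65 ± 1.77 forms and 274 ± 79.0 RPM at d105, against 2.71 ± 1.49 forms and 245 ± 167 at d95 (SD, n = 23 at d105 and 14 at d95). These form numbers are at full depth, where d95 libraries had fewer reads, and these values carry no test.

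This TRBV1 receptor also had the most forms of any member in 8 of the 9 groups, with 14 in R, 12 in NR, 19 in PLX+PTX and 12 in WTNT libraries at d105, and with 7 in R, 6 in NR, 9 in PLX+PTX and 7 in PTX libraries at d95. In the d105 PTX group the lead was held by TRBV1 TRBJ2-5 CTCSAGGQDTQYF, with 8 forms and 616 reads in replicate 1. Members were rarely large. The one with the highest share of a library was TRBV26 TRBJ1-1 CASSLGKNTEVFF in d105 PLX+PTX replicate 4, with 7 forms and 5851 reads, or 0.309% of reads.

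**Figure D2:**
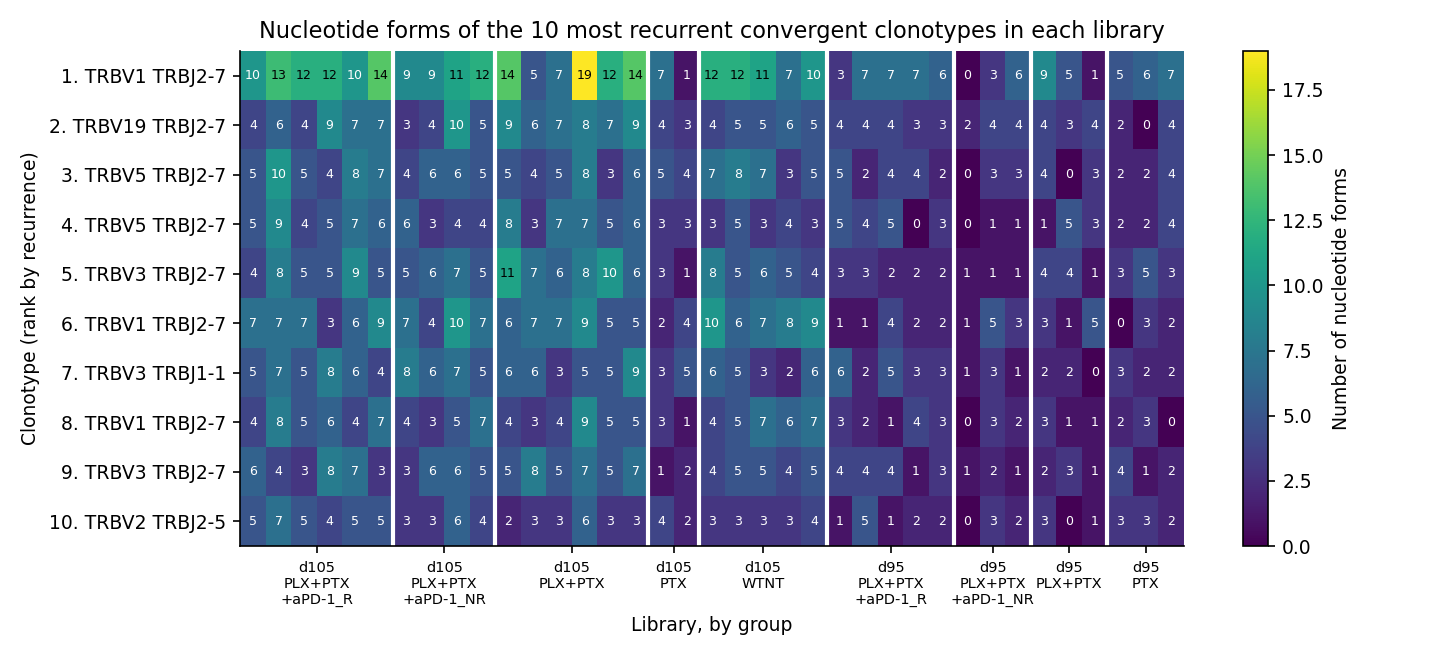
Number of nucleotide forms (colour and digits) of the 10 most recurrent convergent clonotypes (rows, named by rank and segments) in each of 37 libraries (columns, by group), at full depth. Rank 1 reaches 19 forms in a d105 PLX+PTX library, and d95 libraries, which have fewer reads, hold fewer forms.

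Convergent clonotypes were shared between mice far more than other clonotypes. Within a library, 99.2% ± 0.79 of members had their amino acid clonotype in at least 1 other library (SD over 36 libraries, range 96.4% to 100%). The share was 91.6% ± 1.35 for clonotypes with 2 forms and 53.2% ± 2.93 for those with 1 form (SD over 37 libraries). The median number of other libraries was 22, 10 and 1. Single nucleotide forms of members were found in another library in 77.2% ± 3.49 of cases, against 57.8% ± 3.80 with 2 forms and 25.02% ± 2.96 with 1 form. Among abundant clonotypes a gap was left: 1-form clonotypes with at least the median reads of their library's members were shared in 72.2% ± 6.39 of cases, at most 92.9% in any library. Among d105 libraries, 94.9% ± 1.13 of members were also present in a d95 library, against 28.2% ± 1.11 of other clonotypes (SD, n = 23). These shares have no test, since the libraries are compared with each other.

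The members had short CDR3s and short joints. In 36 libraries their CDR3 averaged 13.5 ± 0.11 amino acids, against 14.0 ± 0.03 in other clonotypes, a difference of -0.48 that was below 0 in 36 of 36 libraries. Between the aligned TRBV and TRBJ ends they had 7.35 ± 0.30 bases against 9.72 ± 0.13, a difference of -2.37 bases, below 0 in 36 of 36. Over the whole CDR3, with the ends encoded by TRBV and TRBJ included, members held residues with slightly fewer synonymous codons. The mean log2 number of codons per residue was 1.64 ± 0.016 against 1.67 ± 0.0029, lower in 36 of 36. The part of segment usage in this difference was not tested. Their forms held more reads, with 5.09 ± 0.45 against 4.88 ± 0.47 as the library's median log2 reads per form, higher in 35 of 36. The rule used clone counts, so the difference in reads per form is a description. The differences in length, bases between the aligned ends and codons were tested by flipping the sign of each library's difference. Each had p = 1e-05 in this two-sided permutation test, the smallest value 100000 resamples can give. After Benjamini-Hochberg adjustment over 4 tests, reads per form included, each was 1e-05. By length, 1.79% of clonotypes with 11 amino acids were members, 1.53% with 12, 1.34% with 13, 1.39% with 14, 0.872% with 15, 0.221% with 16 and 0.0288% with 17.

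**Figure D3:**
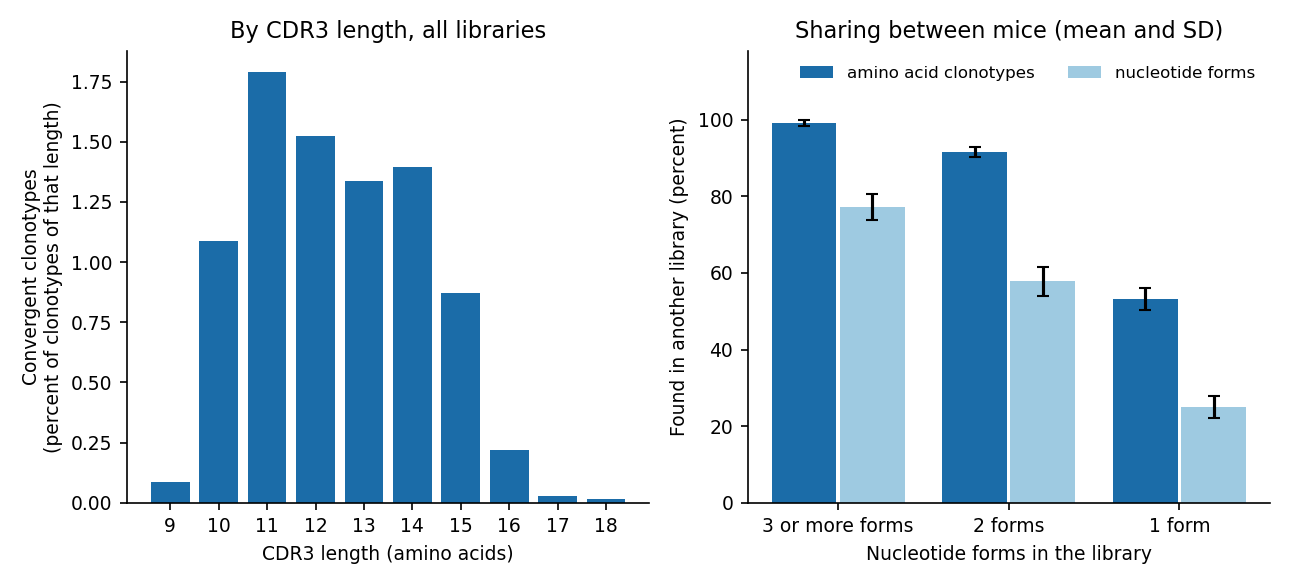
Left, convergent clonotypes as a percent of all clonotypes of each CDR3 length (bars, all libraries together). Right, percent of amino acid clonotypes (dark) and nucleotide forms (light) that were also found in another library, by number of forms, as mean and SD over libraries: 99.2% of convergent clonotypes were shared, against 53.2% of 1-form clonotypes.

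Members drew on few segments, above all TRBV1 and TRBJ2-7. TRBV1 was used by 28.3% ± 3.75 of members and 15.3% ± 1.10 of other clonotypes (SD, 36 libraries), a log2 ratio of 0.87 ± 0.03 (SE) that was positive in 36 of 36 libraries (limma, adjusted p = 1.21e-27). TRBJ2-7 was used by 38.1% ± 6.03 of members and 22.3% ± 1.47 of others, a log2 ratio of 0.76 ± 0.03 (SE), positive in 36 of 36 (limma, adjusted p = 3.58e-23). TRBV5 had 14.7% ± 3.06 against 10.1% ± 0.74, with a log2 ratio of 0.51 by limma and 0.46 by edgeR, where the second misses the size of 0.5 that a call required. Calls needed an adjusted p of 0.05 and a log2 ratio of at least 0.5 in size. On that rule 2 of 12 TRBV segments tested were higher in members (16.7%) and 7 lower (58.3%), and 1 of 12 TRBJ segments was higher (8.33%) and 7 lower (58.3%). Shares sum to 100, so the rise of some segments lowers the shares of the rest.

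The TRBV segments lower in members were TRBV19, TRBV4, TRBV26, TRBV29, TRBV20, TRBV23 and TRBV30. TRBV19 had 6.55% ± 2.12 of members and 9.94% ± 1.12 of others, although the second most recurrent member used it. For segments that are rare in members, limma's log ratio is drawn down by libraries with none, and edgeR's ratios of clonotype numbers are given instead: -1.06 for TRBV4, -1.22 for TRBV26, -1.72 for TRBV29, -1.56 for TRBV20, -5.82 for TRBV23 and -4.33 for TRBV30. TRBV23 had 2 members among 10364 clonotypes, and TRBV30 had 4 among 7228. TRBV24, TRBV3 and TRBV2, at 16.6%, 15.2% and 10.8% of members, differed by less than the required size.

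Within the joining segments, each segment tested of the TRBJ1 cluster except TRBJ1-1 was lower in convergent clonotypes. By edgeR the log2 ratios were -0.74 for TRBJ1-2, -0.83 for TRBJ1-3, -2.19 for TRBJ1-4, -3.84 for TRBJ1-5 and -0.78 for TRBJ1-6. TRBJ1-1 had 7.13% ± 2.10 of members against 7.78% ± 0.47 of others and was not called. In the TRBJ2 cluster TRBJ2-2 was lower, at -0.61 by edgeR, and TRBJ2-1 was called by limma at -0.52 but not by edgeR at -0.32, while TRBJ2-3, TRBJ2-4 and TRBJ2-5 were not called. For the pair TRBV1 and TRBJ2-7, 1107 of 36764 clonotypes (3.01%) were members, and for TRBV5 and TRBJ2-7 it was 1007 of 37207 (2.71%).

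Lists of segments with known roles gave few members to test. Of 7 segments known to bind mouse superantigens, 4 were tested, with TRBV1 higher in members and TRBV19, TRBV26 and TRBV29 lower. Of 6 segments used by invariant NKT or MAIT cells, 3 were tested, with TRBV1 higher and TRBV19 and TRBV29 lower. Over all 12 TRBV segments tested, 2 were higher and 7 lower. The FVB/N strain is known to lack a block of TRBV genes, and the 461 clonotype entries assigned to that block contained 0 members, where a count of 0 allows up to 3.

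Tyrosine was the residue called higher in members. In the CDR3 without its first 4 and last 4 residues, tyrosine made up 7.88% ± 1.12 of residues in members and 5.13% ± 0.23 in others, a log2 ratio of 0.60 (limma, adjusted p = 7.65e-23, higher in 36 of 36 libraries). It was the 1 of 19 residues called higher (5.26%), and 7 of 19 (36.8%) were called lower: phenylalanine, histidine, lysine, methionine, proline, arginine and valine. Arginine had 3.20% ± 0.70 in members against 5.86% ± 0.09 in others, and proline 1.86% ± 0.56 against 3.55% ± 0.05. Glycine, the residue encoded by the G runs of both diversity segments, had 27.9% ± 1.91 against 22.0% ± 0.13, and alanine 10.7% ± 0.94 against 8.67% ± 0.11, and both were under the size required, with log2 ratios of 0.34 and 0.29. TRBJ2-7 itself encodes a tyrosine close to its start, and the part of segment usage in these shares was not tested.

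**Figure D4:**
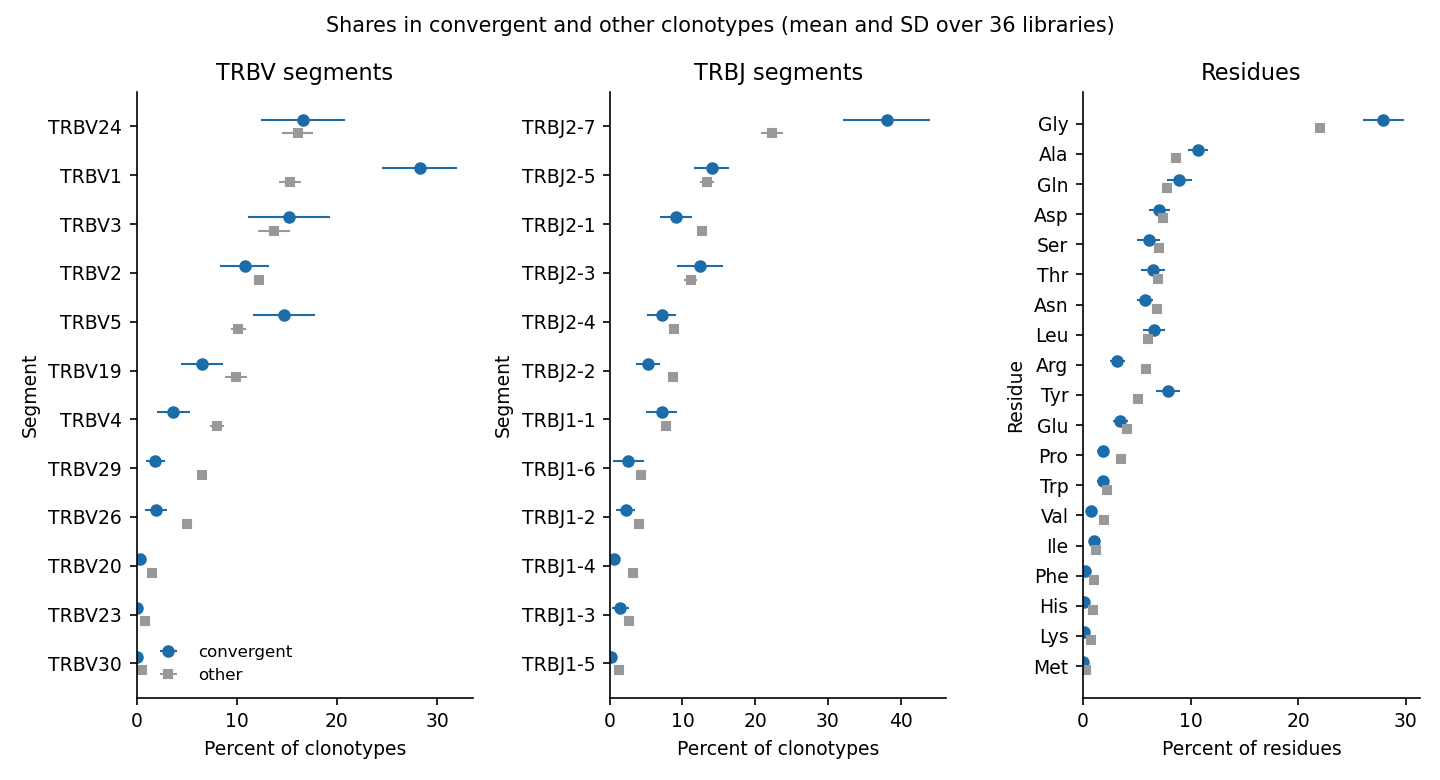
Percent of clonotypes using each TRBV segment (left) and TRBJ segment (middle), and percent of residues (right), in convergent clonotypes (blue circles) and other clonotypes (grey squares), as mean and SD over 36 libraries. TRBV1 (28.3% against 15.3%), TRBJ2-7 (38.1% against 22.3%) and tyrosine (7.88% against 5.13%) stand to the right in convergent clonotypes.

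For the comparisons between groups, each library was thinned to 222369 reads, which left out d95 NR replicate 1 and kept 36 libraries. Convergent clonotypes were counted among the thinned reads (equal reads), and again among 10329 nucleotide clonotypes drawn evenly from each library (equal clonotypes). The percent of thinned reads in convergent clonotypes was the third measure. The 8 comparisons and 3 measures made 24 tests, adjusted together by the Benjamini-Hochberg method. Labels do not say whether libraries of a group came from separate cages or runs, so p-values measure the spread between these mice.

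The 2 days differed in every measure, but not in the same direction. At equal reads, MMTV-PyMT libraries held a lowest, median and highest of 45.1, 317 and 562 convergent clonotypes at d105 (n = 18), against 23.5, 52.4 and 115 at d95 (n = 13). The percent of reads in them was 3.50 ± 0.98 at d105 and 1.48 ± 0.49 at d95. In both measures every d105 library except PTX replicate 2 was above every d95 library. At equal numbers of clonotypes the order turned, with 12.1 ± 1.80 convergent clonotypes at d105 and 21.3 ± 5.44 at d95. The ranges just missed each other, with a highest of 15.2 at d105 and a lowest of 15.5 at d95. Within each day, this measure fell as libraries held more nucleotide clonotypes. On log2 values, r was -0.552 at d105 (n = 23) and -0.715 at d95 (n = 13). The part of this relation in the difference between days was not tested. Permuting days within treatments, the differences were 231 at equal reads, 1.84 percentage points of reads and -9.12 at equal clonotypes. Each had adjusted p = 8e-05 in a two-sided permutation test. The MMTV-PyMT mice of the 2 days carried separate ranges of mouse numbers in the labels, so day and range cannot be told apart. At equal reads the d105 libraries also held more nucleotide clonotypes, 15864 to 45443 against 9673 to 21150 at d95. Fewer T cells in the tissue and fewer different receptors among as many T cells cannot be told apart in such libraries. With the draw of equal clonotypes made in proportion to reads, the difference was -4.89 (adjusted p = 0.0143, permutation test). With all 37 libraries and the 2103 clonotypes of the smallest, d95 NR replicate 1, it was -0.09 (adjusted p = 0.463, permutation test). That library held 0 convergent clonotypes among all its 2103, so a draw of this size may leave too few to compare the days.

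All PLX+PTX libraries of d105 lay above both PTX libraries in convergent clonotypes at equal reads, a difference that did not pass adjustment. At equal reads there were a lowest, median and highest of 196, 362 and 529 in 6 PLX+PTX libraries, against 167 and 45.1 in 2 PTX libraries, with no overlap. The percent of reads was 3.92 ± 0.73 in PLX+PTX libraries and 2.38 and 1.05 in the PTX libraries. Both had p = 0.0357 in a two-sided exact permutation test, the smallest that 28 splits allow, and adjusted p = 0.171. At equal clonotypes the order turned, with 11.4 ± 1.40 in PLX+PTX libraries against 14.1 and 13.1 in PTX libraries (exact permutation test, adjusted p = 0.343). The PTX libraries also had fewer nucleotide clonotypes at equal reads, 26284 and 15864, against 28341 to 45443 in PLX+PTX libraries. Without PTX replicate 1 the difference at equal reads was 313, and without PTX replicate 2 it was 191. Within the higher range of mouse numbers in the labels, which held both PTX mice and 2 of the 6 PLX+PTX mice, it was 319. At d95 there were 80.6, 30.4 and 34.0 in PLX+PTX libraries against 54.2, 38.4 and 25.9 in PTX libraries, which overlapped (exact permutation test, p = 0.7, smallest possible 0.1).

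R and NR libraries of d105 lay within each other's spread. At equal reads R libraries held a lowest, median and highest of 173, 302 and 562 convergent clonotypes, against 249, 290, 479 and 312 in NR libraries, and the ranges overlapped (difference 4.54, exact permutation test, p = 0.943). Within the higher range of mouse numbers in the labels the difference was -26.9, so its direction turned. At d95 the R libraries held 115, 106, 90.0, 52.4 and 66.7, against 23.5 and 50.3 in the NR libraries that could be thinned, with every R library above both. The percent of reads was 2.28, 2.09, 2.12, 1.48 and 1.69 in R libraries and 0.797 and 1.32 in NR libraries, again with no overlap. The exact permutation test gave p = 0.0952 for the number and p = 0.0476, the smallest that 21 splits allow, for the percent, with adjusted p of 0.286 and 0.190. At equal clonotypes the groups overlapped, with 19.1 ± 3.59 in R libraries against 16.5 and 20.9 in NR libraries (difference 0.44, exact permutation test, p = 0.857). The R libraries also held more nucleotide clonotypes at equal reads, 14359 to 21150, against 11165 and 13797 in NR libraries. Whether the contrast of R with NR, on the log2 scale, changed with day was tested by permuting days within treatments. For the percent the permutation test gave p = 0.0162 and an adjusted p of 0.145, the lowest of 9 such tests.

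Neither aPD-1 libraries against PLX+PTX libraries nor MMTV-PyMT against WTNT libraries gave a difference past the threshold. Every d105 MMTV-PyMT mouse was given PTX, and WTNT mice had no agent in the labels. Transgene, tumor and agents thus cannot be told apart in the second comparison. At d105 and equal reads, aPD-1 libraries held a lowest, median and highest of 173, 301 and 562 (n = 10), against 196, 362 and 529 in PLX+PTX libraries (n = 6, exact permutation test, p = 0.705). The difference was -23.2, and -15.7 when groups were permuted within the 2 ranges of mouse numbers in the labels. At d95 they held 72.0 ± 33.1 (n = 7) against 48.3 ± 28.0 in PLX+PTX libraries (n = 3, exact permutation test, p = 0.325). At equal clonotypes the differences ran the other way, with 12.2 ± 2.02 in aPD-1 libraries against 11.4 ± 1.40 in PLX+PTX libraries at d105 (exact permutation test, p = 0.399), and 19.01 ± 3.20 against 26.3 ± 9.49 at d95 (exact permutation test, p = 0.0917, adjusted p = 0.286). The d95 PLX+PTX libraries held 15.7, 34.0 and 29.2. Those with 34.0 and 29.2 had 10329 and 10836 nucleotide clonotypes, so the draw hardly thinned them. Leaving out 1 library at a time, this d95 difference ran from -12.6 to -3.44. MMTV-PyMT libraries of d105 held 317 ± 133 (n = 18) against 384 ± 54.8 in WTNT libraries (n = 5, exact permutation test, p = 0.292), and 12.1 ± 1.80 against 10.6 ± 0.87 at equal clonotypes (exact permutation test, p = 0.108). All pairs overlapped in these measures.

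**Figure D5:**
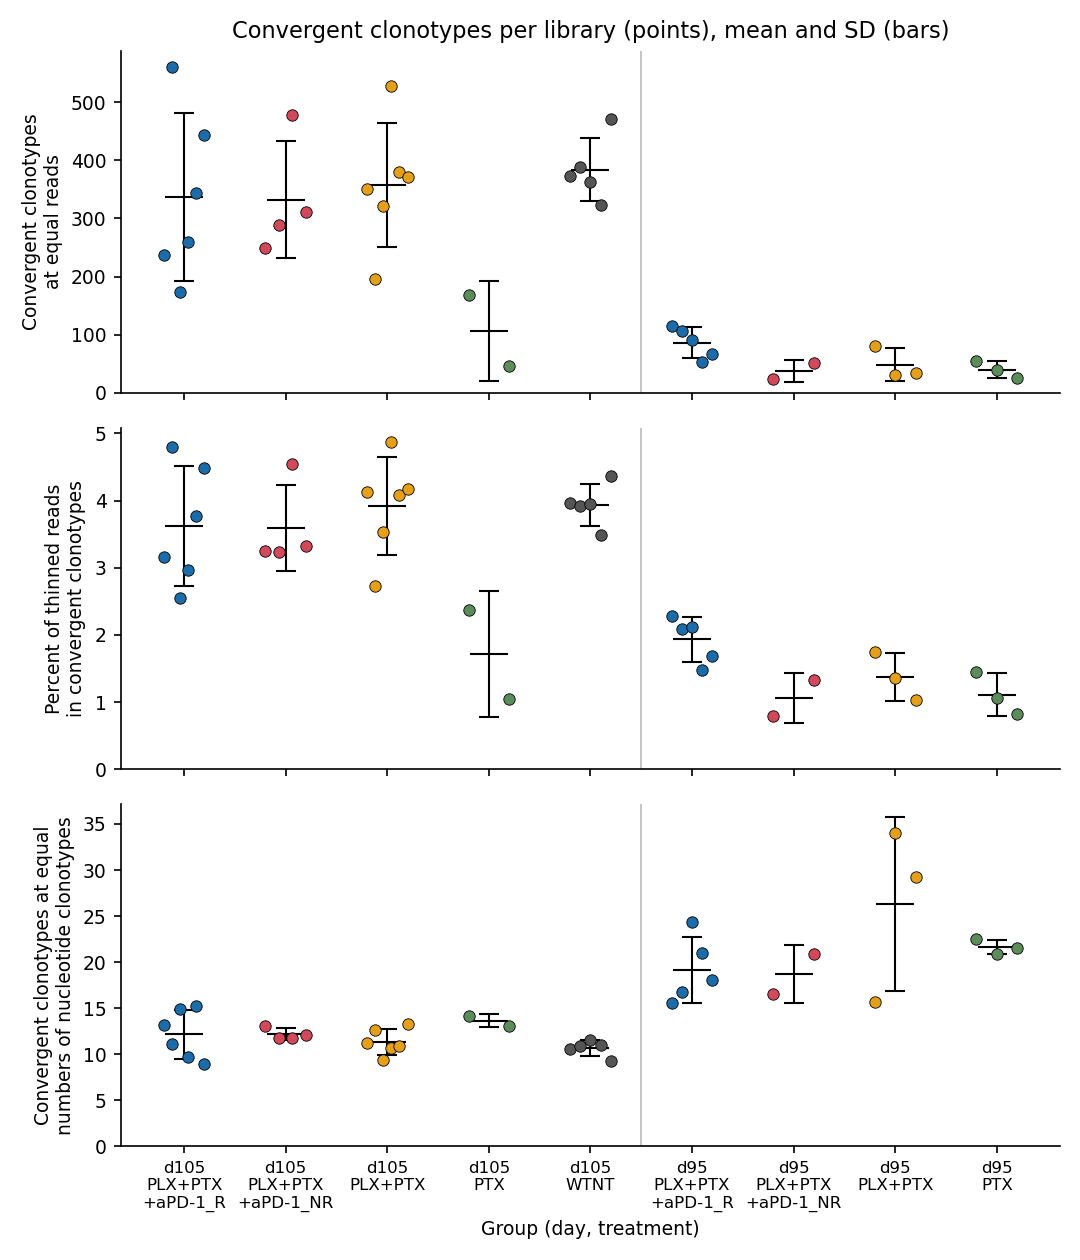
Convergent clonotypes at equal reads (top), percent of thinned reads in convergent clonotypes (middle) and convergent clonotypes at equal numbers of nucleotide clonotypes (bottom), per library (points), with mean and SD (bars), for 9 groups in 36 libraries. The d105 MMTV-PyMT libraries lie above those of d95 in the top and middle panels, apart from d105 PTX replicate 2, and below them in the bottom panel.

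The abundance of single receptors was compared with limma on log2 of RPM plus 10, over amino acid clonotypes that 50% or more of a day's libraries contained. At d105 5242 were tested, of which 107 were convergent in at least 50% of libraries. At d95 964 were tested, of which 5 were. None of these recurrent members passed an adjusted p of 0.05 in any of 7 comparisons within days. At an unadjusted p under 0.05 there were 4, 7, 17 and 3 of the 107 at d105, for R against NR, aPD-1 against PLX+PTX, PLX+PTX against PTX and MMTV-PyMT against WTNT, and 0 of the 5 in each d95 comparison. These d105 counts were 3.74%, 6.54%, 15.9% and 2.80% of the 107, against 5.49%, 4.92%, 10.1% and 5.25% of all clonotypes tested. Over all clonotypes tested the called shares were 0%, 0.0191%, 0% and 0% in the 4 d105 comparisons and 0.207%, 0% and 0.104% for R against NR, aPD-1 against PLX+PTX and PLX+PTX against PTX at d95. In PLX+PTX against PTX at d105, the median log2 ratio was 0.24 for the 107 and 0.22 for all clonotypes tested. edgeR's quasi-likelihood test also called 0 recurrent members in each of the 7 comparisons.

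The TRBV1 TRBJ2-7 receptor with the ending GTGGYEQYF had 111 to 160 RPM in the 6 PLX+PTX libraries of d105, with a median of 125, against 93.3 and 10.1 in the PTX libraries. Both PTX libraries were below all PLX+PTX libraries. The log2 ratio was 1.61 ± 0.48 (SE; limma, adjusted p = 0.361). Leaving out 1 library at a time, this ratio ran from 0.43 to 2.79, the latter without PTX replicate 1. That fit left 1 PTX library, replicate 2, the d105 library with the fewest clonotypes, so no p or number of calls is given for it.

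Clonotypes that were convergent in fewer libraries gave 3 calls by limma and none by edgeR. TRBV26 TRBJ2-7 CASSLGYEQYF, convergent in 10 libraries and present in 26 with a clone count of at least 2, was called in 2 of the d95 comparisons. Its 4 forms in d105 PLX+PTX replicate 1, with 273, 253, 114 and 107 reads, had no aligned diversity segment. They are given because 2 of the 3 calls were of this receptor, which had 15 forms over all libraries.
TRBV26 form 1: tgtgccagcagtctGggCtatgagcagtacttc
TRBV26 form 2: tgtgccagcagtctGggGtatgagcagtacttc
TRBV26 form 3: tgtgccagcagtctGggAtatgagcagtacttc
TRBV26 form 4: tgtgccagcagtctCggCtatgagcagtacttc
The capitals, the bases that differ among the 4, each lie at the third base of a codon. Forms 1 and 2 were each found in 11 libraries, form 3 in 7 and form 4 in 6.

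At d95, TRBV26 TRBJ2-7 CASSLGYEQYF had 110, 199, 76.2, 453 and 203 RPM in R libraries, against 0 in all 3 NR libraries. It was present in every R library and in no NR library, where 3 reads would have been 33.1, 7.203 and 5.37 RPM. The R mean was at least 13.7-fold higher, taking 3 reads in each NR library as the floor. It also had 229, 182 and 135 RPM in PLX+PTX libraries of d95 and 0 in all 3 PTX libraries, at least 23.5-fold higher on the same floor. The 8 of 14 d95 libraries that carried this receptor past the filter on presence were the 5 R and 3 PLX+PTX libraries, the groups in which it was high. It therefore had to differ from the groups at 0, and no p is given for these differences. The call was kept in 11 of 14 alternatives for R against NR, and in 3 of 12 for PLX+PTX against PTX. The second call was lost in each of the 6 alternatives in which 1 library was left out. At d105 this receptor had 0, 68.9, 386, 263, 0 and 0 RPM in R libraries, against 114, 92.8, 98.3 and 85.2 RPM in NR libraries, and 0 in both PTX libraries. The d105 R libraries lay both above and below all NR libraries, with a mean of 120 against 97.5 RPM and a median of 34.4 against 95.6 RPM.

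TRBV1 TRBJ2-4 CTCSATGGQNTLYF, convergent in 5 libraries, was called lower with aPD-1 at d105. Its 4 forms in d105 PLX+PTX replicate 3, with 56, 55, 48 and 46 reads, joined both diversity segments.
TRBV1 TRBJ2-4 form 1: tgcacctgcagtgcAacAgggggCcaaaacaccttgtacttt
TRBV1 TRBJ2-4 form 2: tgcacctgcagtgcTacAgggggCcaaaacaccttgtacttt
TRBV1 TRBJ2-4 form 3: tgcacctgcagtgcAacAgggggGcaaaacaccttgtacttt
TRBV1 TRBJ2-4 form 4: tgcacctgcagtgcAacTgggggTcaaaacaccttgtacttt
Forms 1 to 3 were aligned to TRBD1 and form 4 to TRBD2. It held 8.09 ± 13.6 RPM in 10 aPD-1 libraries, with 0 in 7 of them, against 71.6 ± 36.6 in 6 PLX+PTX libraries, whose lowest, median and highest were 19.8, 72.8 and 113. All 4 NR libraries held 0, and the highest R library, at 35.9, was above the lowest PLX+PTX library. Among d105 groups without aPD-1, both PTX libraries also held 0, and the 5 WTNT libraries held 25.2 to 76.9. The log2 ratio was -2.32 by limma. It was present in 14 of 23 d105 libraries, the 6 PLX+PTX, 5 WTNT and 3 R libraries. Without the PLX+PTX group, in which it was high, it would not have been tested, so no p is given for this difference. The call was lost in 14 of 22 alternatives, among them edgeR and 9 of the 16 in which 1 library was left out. At d95 the same receptor had 68.6, 0, 115, 12.6 and 0 RPM in R libraries, 0, 0 and 113 in NR libraries, 0, 0 and 4.497 in PLX+PTX libraries, and 83.2, 0 and 216 in PTX libraries. The difference was thus not seen in the same direction at d95, and the change between days was not tested.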

How the data were processed

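Clonotype tables of TRB from lymph node genomic DNA, read as 2 x 150 bases, were used for 37 libraries. The deposited clone counts are reads per nucleotide clonotype, per the file headers. The deposited normalized clone count, treated as a score because no source states its derivation, was used only as an alternative. The aligner was not given in the sources used here, nor was the build. Members and lists were chosen with earlier results of these data known.

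Members were found as described above. The ends of TRBV, TRBD and TRBJ came from the deposited alignment positions, in place of germline ends. Each library was thinned without replacement to 222369 reads (or 10329 nucleotide clonotypes), averaged over 10 draws (numpy 2.4.6). d95 NR replicate 1 was too shallow and was left out there. Group means were compared with exact permutation tests, or 100000 resamples. Segment and residue shares, as log2 of percent plus 0.1, were tested with limma 3.58.1, paired by library, where the mean share was at least 0.1%. Abundance was tested with limma on log2 of RPM plus 10. edgeR 4.0.16 and DESeq2 1.42.0 on counts were alternatives. Procedures were tested on simulated data.

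Named clonotypes were the 10 convergent in the most libraries, the leader of each group, and members past the threshold. Named segments and residues were those past it, with all TRBJ segments. The forms printed for TRBV26 TRBJ2-7 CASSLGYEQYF and TRBV1 TRBJ2-4 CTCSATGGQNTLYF were chosen after their values were seen. Intervals and floors cover counting error only.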

Additional observations from a re-analysis of the deposited data

Results flagged for a closer look

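Within each group of 4 to 10 libraries, the highest and lowest were set against the others by Dixon's criterion, in 85 groups and measures. Chance picks out about 1 in 20 groups, and 3 values were picked out. In d105 NR replicate 3, convergent clonotypes held 4.54% of thinned reads, against 3.23% to 3.33% in the other 3 NR libraries of that day. In d105 NR replicate 1, the CDR3 of convergent clonotypes was shorter than that of other clonotypes by more than in the other libraries of its group, at -0.46 amino acids against -0.40 to -0.39. In d105 PLX+PTX replicate 2, TRBV3 TRBJ2-7 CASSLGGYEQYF stood at 457 RPM, against 101 to 199 RPM in the other 5 PLX+PTX libraries.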

How the results depend on the processing

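There were 1041 alternatives for 85 results. The 4 differences of length, joint, codons and reads per form between convergent and other clonotypes kept their direction under each one run. The calls of length, joint and codons were kept as well. Of 502 alternatives of the group comparisons, 37 turned the direction, 24 of them in R against NR at d105, 1 was no longer past the threshold and 0 were newly past it (permutation tests). With 90000 reads and all 37 libraries, R against NR at d105 was -2.53 at equal reads and 0.125 at equal clonotypes, PLX+PTX against PTX at d105 was 0.10 at equal clonotypes, and d105 against d95 was -0.0913 at equal clonotypes and lost its call. For equal clonotypes that setting draws 2103 in place of 10329, which may leave too few convergent clonotypes to give a direction. With a clone count of 1, R against NR at d95 was -2.95 at equal clonotypes. With 5, R against NR at d105 was -0.475 at equal reads, aPD-1 against PLX+PTX was -0.32 and MMTV-PyMT against WTNT -0.758 at equal clonotypes. With 2 forms, R against NR was -48.7 at equal reads and -0.331 percentage points at d105, and -13.3 at equal clonotypes at d95. With 4 forms, it was -0.417 at equal reads and 0.35 at equal clonotypes at d105. Drawing clonotypes in proportion to reads, chosen after seeing the data, gave 1.15 for R against NR, -1.28 for aPD-1 against PLX+PTX and 3.57 for PLX+PTX against PTX at d105, and 0.505 for aPD-1 against PLX+PTX at d95. The higher range of mouse numbers alone, also chosen after seeing the data, gave -26.9 at equal reads and -0.145 percentage points for R against NR at d105. The causes were not tested.

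Leaving out 1 library at a time, R against NR at d105 ran from -40.5 to 53.3 at equal reads, -0.615 to 0.645 at equal clonotypes and -0.202 to 0.350 percentage points. At equal reads, aPD-1 against PLX+PTX at d105 ran from -55.7 to 10.9 and PLX+PTX against PTX at d95 from -7.3 to 17.8. R against NR at d95 ran from -1.76 to 2.64 at equal clonotypes. For PLX+PTX against PTX at d105, DESeq2 called 1 recurrent member, on TRBV5 and TRBJ2-7. Calls are not counted for fits of that comparison that left 1 PTX library. Among segments, limma called 2 TRBV higher and edgeR 1. TRBV24 was at -0.0730 and TRBJ2-5 at -0.0386 without 1-base neighbours, and TRBJ2-3 at 0.0606 with a pseudocount of 1%, 0.20 by edgeR and 0.20 by DESeq2, all turned in direction. TRBV5 fell under the size of a call with a pseudocount of 1% and by edgeR and DESeq2, and TRBJ2-1 in 4 alternatives, while methionine did so with a pseudocount of 1% (-0.31). TRBJ2-4 was called lower with a pseudocount of 0.01% (-0.56) and without 1-base neighbours (-0.66), and tryptophan with a pseudocount of 0.01% (-0.51). The d95 libraries had the fewest reads, and libraries with few clonotypes held few convergent ones. No paired analysis was possible because the replicate numbers were given in accession order and the labels pair no mice across groups.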
